A study of Mus musculus with 6 samples.

Results

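The genes described here are 9 transcription factors of the forebrain and hippocampus, Neurod1, Neurod2, Neurod6, Emx2, Lhx2, Tbr1, Prox1, Bcl11b and Zbtb20. They were chosen by name and are 9 of 22225 protein-coding gene symbols in the GENCODE annotation of mouse genome build mm9. Reads of 6 ChIP-seq libraries from mouse hippocampus were counted over each gene body and over its promoter, taken as 5 kb ahead of the first transcription start site (TSS). The libraries came from 2 groups of mice, labelled as C57/BL6 and 6 months old in both groups and given as C57Bl6/J males of 4 to 7 months in the methods. The FC group received a foot shock in a conditioning context on the first and the second day and a memory test in that context on day 3, with tissue taken within 1 h of the test. CON mice had the same handling and context exposure and never received a shock. For each group 1 library was made with an antibody to histone H4 acetylated at lysine 5 (H4K5ac), 1 with IgG as a mock precipitation (IgG-IP) and 1 from genomic DNA without precipitation (input). The methods name 3 hippocampal samples per group that were cross-linked individually, whereas 1 library of each kind was deposited per group, and the methods mention a pooling step after gel purification of the libraries but do not say whether the 3 samples of a group went into 1 library. There was therefore no replicate, no test between groups was possible, and all intervals below are exact 95% intervals that cover counting error only. The tissue was whole hippocampus, so fewer cells of a type and less acetylation per cell cannot be told apart.

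H4K5ac is an acetyl mark on the tail of histone H4 that is found on chromatin of transcribed genes, at promoters and along coding regions. Neurod1, Neurod2 and Neurod6 are basic helix-loop-helix factors that bind E-box sequences, promote neuronal differentiation and, in the case of Neurod2 and Neurod6, stay expressed in mature excitatory neurons of the cortex and hippocampus. Emx2 and Lhx2 are homeodomain factors that pattern the early cortex and hippocampus. Prox1 is a homeodomain factor that marks granule cells of the dentate gyrus, Tbr1 is a T-box factor of glutamatergic neurons, and Bcl11b (also named Ctip2) and Zbtb20 are zinc-finger factors that hippocampal neurons keep in adulthood.

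Among the 9 genes, the Neurod paralogs had both the lowest gene-body ratio of H4K5ac to IgG-IP (Neurod6, both groups) and, in CON, the highest (Neurod2). The bases upstream of their start sites are given first for that reason. All 3 genes lie on the minus strand, with Neurod1 at chr2:79292678-79296908, Neurod2 at chr11:98186729-98190962 and Neurod6 at chr6:55627812-55631257 in mm9. The sequences run 5′ to 3′ toward the TSS and cover chr2:79296943-79297158, chr11:98190963-98191212 and chr6:55631258-55631507. For Neurod1 the 34 bases next to the TSS were left out because they lie in an annotated exon of an overlapping transcript. Capitals mark CAGATG, an E-box form that Neurod factors are known to bind, and the related palindrome CATATG.
Neurod1: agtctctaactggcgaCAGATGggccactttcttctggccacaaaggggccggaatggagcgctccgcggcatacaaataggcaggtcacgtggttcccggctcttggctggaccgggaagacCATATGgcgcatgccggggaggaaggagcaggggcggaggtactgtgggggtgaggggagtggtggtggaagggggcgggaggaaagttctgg
Neurod2: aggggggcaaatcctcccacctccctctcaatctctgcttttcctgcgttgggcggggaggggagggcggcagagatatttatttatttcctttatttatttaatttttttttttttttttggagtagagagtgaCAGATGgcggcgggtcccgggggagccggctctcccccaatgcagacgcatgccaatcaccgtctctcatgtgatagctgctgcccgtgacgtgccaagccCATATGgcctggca
Neurod6: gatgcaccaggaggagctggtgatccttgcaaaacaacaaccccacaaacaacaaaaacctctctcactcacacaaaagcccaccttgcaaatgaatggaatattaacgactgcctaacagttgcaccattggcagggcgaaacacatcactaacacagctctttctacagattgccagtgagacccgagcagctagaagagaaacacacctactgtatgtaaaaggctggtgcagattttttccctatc
Both hexamers were searched on both strands (CAGATG also as CATCTG) in the 250 bases upstream of every protein-coding TSS, and the 2 motifs did not overlap each other at these genes. CAGATG was found at 234 bases before the TSS of Neurod1 and at 115 bases before that of Neurod2, and CATATG at 127 and at 14 bases. Among all 22225 upstream windows, 12.8% held CAGATG and 2.89% held CATATG. Of the 9 genes, Neurod1, Neurod2 and Tbr1 held CAGATG, Neurod1 and Neurod2 held CATATG, and none held TAATTA, a core letter string of many homeodomain motifs that 4.59% of all windows held. The Neurod6 window held none of the 3 hexamers.

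Read density is given as RPKM, which divides the reads of a region by its length and by the reads of the library on the autosomes and sex chromosomes. The libraries held 14541913 to 45612946 such reads, with the IgG-IP libraries the smallest. In gene bodies H4K5ac was above IgG-IP at the median protein-coding gene by 0.70 in FC and 0.61 in CON on the log2 scale, and 5 of 9 members lay above that median in each group. Against the median of genes of equal GC content, the members above it in FC were only Zbtb20 (0.98), Prox1 (0.45) and Bcl11b (0.09). In CON they were Zbtb20 (0.88), Neurod2 (0.80), Neurod1 (0.39) and Bcl11b (0.03). The ratio of the FC to the CON input library depended on base composition. Its median rose from -0.39 for gene bodies of 35 to 40% GC to 0.70 for those of 55 to 60% GC, while the median of the H4K5ac ratio ran from -0.09 to 0.19 over the same classes. The part of GC content in the values of the members was not tested.

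Gene-body H4K5ac was highest at Bcl11b, Prox1 and Zbtb20, the longest of the 9 genes, in both groups. In FC their densities were 0.822, 0.822 and 0.821 RPKM, at percentiles 82.1, 82.1 and 82 of protein-coding genes, and their intervals overlapped each other. Lhx2 followed at 0.539 RPKM, then Emx2 at 0.475, Tbr1 at 0.427, Neurod2 at 0.351, Neurod1 at 0.322 and Neurod6 at 0.239. From Lhx2 down to Neurod6 the intervals of each pair of neighbours in this order overlapped, and the only gap without overlap was between Zbtb20 (lower bound 0.809) and Lhx2 (upper bound 0.588). In CON Zbtb20 stood first at 0.825 RPKM, above Bcl11b at 0.72 and Prox1 at 0.645, with no overlap between these 3 genes. Neurod6 was the lowest in both groups, at percentiles 21 and 23.4. Over all genes the ratio of H4K5ac to IgG-IP was not higher in long genes. Its median log2 value in FC and CON was 0.85 and 0.68 under 10 kb, and 0.53 and 0.52 over 100 kb. The part of gene length in the values of the members was not tested.

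**Figure D1:**
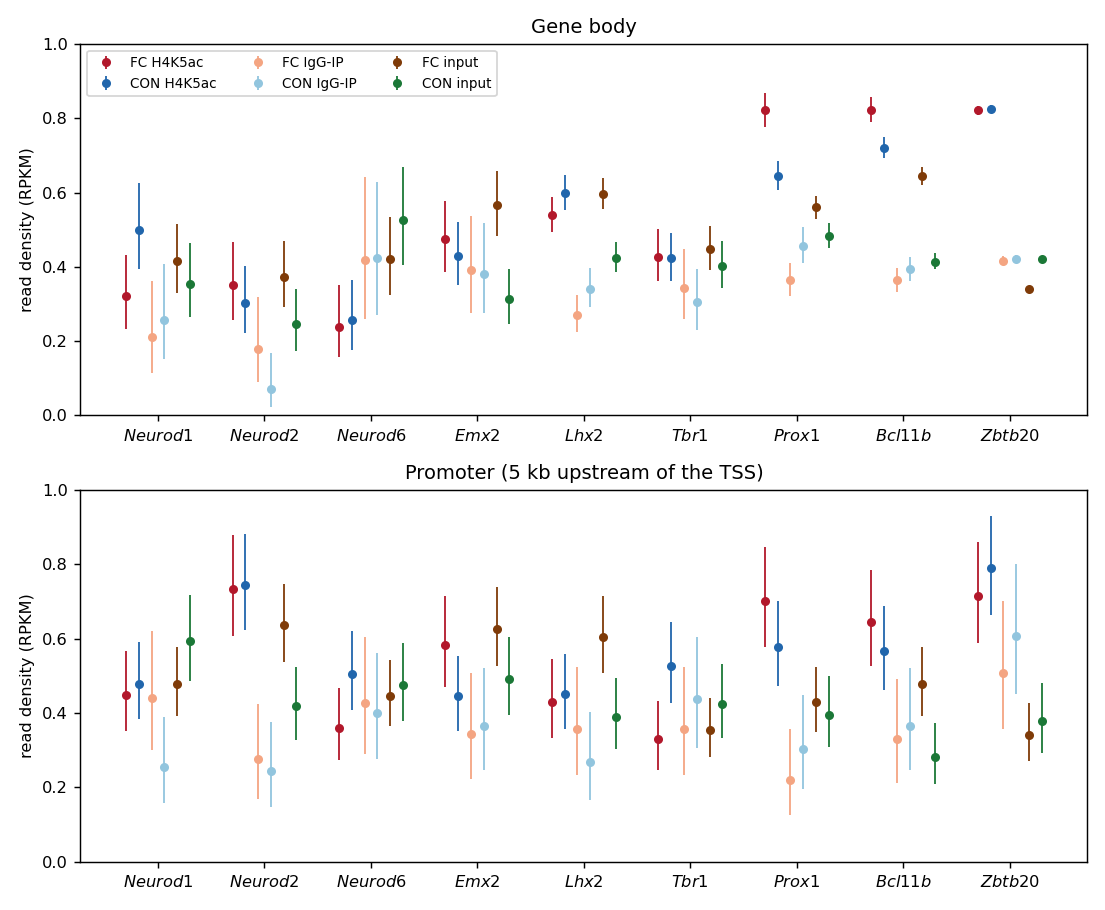
Read density in RPKM (linear axis from 0) of the 9 genes in all 6 libraries, for the gene body (upper panel) and the promoter of 5 kb (lower panel). Points are 1 library each and bars are exact 95% Poisson intervals of the counts. In gene bodies the FC and CON H4K5ac points of Prox1, Bcl11b and Zbtb20 lie above the 4 control points of the same gene, and those of Neurod6 lie below them.

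Gene bodies with H4K5ac at least 2-fold over IgG-IP were counted as enriched. In FC these were Bcl11b and Prox1, 2 of 9 members, where 33.4% of 19278 protein-coding genes with at least 20 reads in the pair of libraries were enriched. In CON 1 of 9 members, Neurod2, was enriched, where the share of all genes was 25.0%. At promoters 2 of 9 members, Neurod2 and Prox1, were enriched in FC beside 35.7% of all genes, and 1 of 9, Neurod2, in CON beside 29.1%. Each of these counts was under the share of all genes. They rest on the point values, and the Bcl11b gene body in FC was the one case whose whole interval lay above 2-fold. In FC the gene bodies of Lhx2 (log2 ratio 0.99), Neurod2 (0.98) and Zbtb20 (0.98) lay just under 2-fold, and the same held for the Bcl11b promoter (0.97) and, in CON, the Zbtb20 gene body (0.97). The median log2 ratio of the gene bodies was 0.98 in FC and 0.81 in CON for the 9 members, and at promoters it was 0.49 and 0.64, where the medians of all genes were 0.68 and 0.58.

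**Figure D2:**
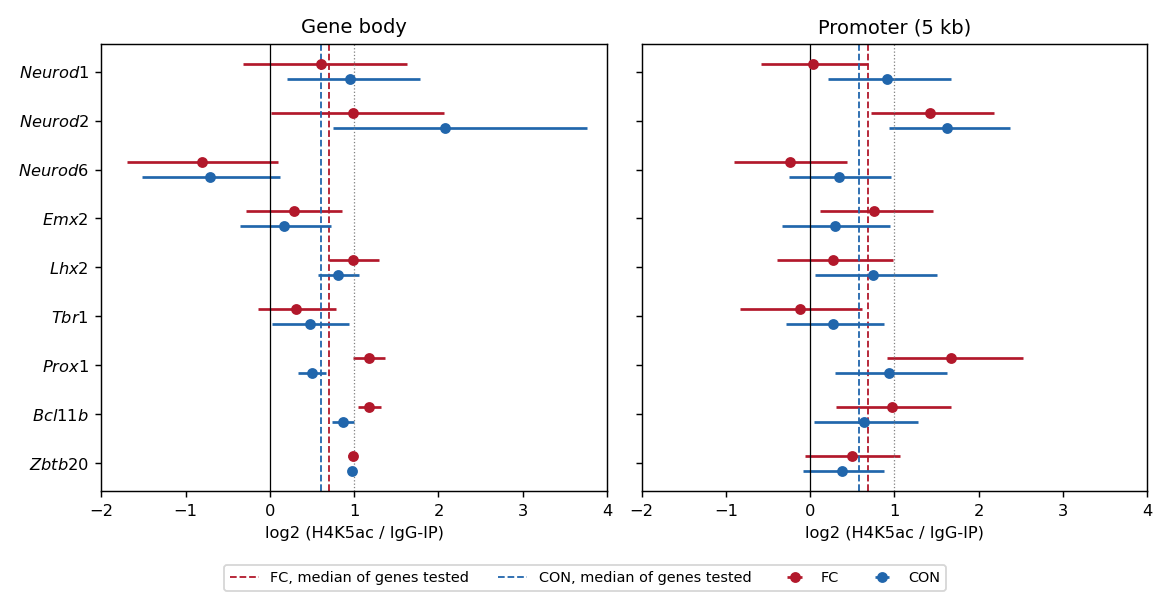
Log2 ratio of H4K5ac to IgG-IP for each gene in FC (red) and CON (blue), with exact 95% intervals of the counts. Dashed lines mark the medians of the protein-coding genes tested and the dotted line marks 2-fold. Neurod6 lies left of every other gene body, and the FC intervals of 5 gene bodies (Neurod2, Lhx2, Prox1, Bcl11b and Zbtb20) lie above 0. How many of all genes had such an interval was not counted.

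Neurod2 carried the highest CON ratio of H4K5ac to IgG-IP in both regions, and in the gene body this ratio rested on few mock reads. Its gene body held 47 H4K5ac reads in FC and 46 in CON, or 0.351 and 0.302 RPKM. The same 4.23 kb held 11 and 5 IgG-IP reads (0.179 and 0.0717 RPKM) and 72 and 37 input reads (0.373 and 0.247 RPKM). H4K5ac was thus close to input and above IgG-IP, and its log2 ratio over IgG-IP was 0.98 (0.01 to 2.07) for FC and 2.08 (0.75 to 3.76) for CON. Over input it was -0.09 (-0.65 to 0.46) and 0.29 (-0.37 to 0.96). The gene body of Neurod2 had the highest GC content of the 9, 60.6%, and relative to the median of genes of equal GC content its FC and CON ratios over IgG-IP were -0.65 and 0.80. Its promoter gave more reads, with 116 and 134 H4K5ac reads in FC and CON (0.734 and 0.745 RPKM). IgG-IP stood at 0.275 and 0.243 RPKM there and input at 0.636 and 0.418, so that H4K5ac was the highest library of each group. The promoter ratio over IgG-IP was 1.42 (0.72 to 2.18) for FC and 1.62 (0.93 to 2.37) for CON, at percentiles 81.8 and 93.7 of the genes tested. Relative to the median of promoters of equal GC content it was 0.01 and 0.49. Over input the promoter gave 0.21 (-0.16 to 0.57) for FC and 0.83 (0.41 to 1.26) for CON, at percentiles 49.4 and 71.8. Within 1 kb of the TSS, where the sequence above lies, 36 and 34 H4K5ac reads stood beside 3 IgG-IP reads in each group and 61 and 24 input reads.

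Around Neurod2 H4K5ac was denser upstream of the gene than in it. The 25 kb upstream, which hold Ppp1r1b, the gene of the phosphatase inhibitor DARPP-32, and a lincRNA, had 1.01 RPKM in FC and 0.905 in CON. The log2 ratio of gene body to this flank was -1.52 in FC and -1.58 in CON with counting standard errors of 0.22, at percentiles 1.85 and 2.01 of protein-coding genes. The IgG-IP and input libraries dipped over the gene body as well, with ratios of -0.65 and -0.77 in FC and -1.97 and -0.71 in CON. The part of that dip in the H4K5ac value was not tested.

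Neurod1, which is needed to form the dentate gyrus, was the member with the largest difference between groups in the gene body. It held 43 H4K5ac reads in FC and 76 in CON (0.322 and 0.5 RPKM), 13 and 18 IgG-IP reads (0.211 and 0.258 RPKM), and 80 and 53 input reads (0.415 and 0.354 RPKM). H4K5ac was lower in FC than in CON while input was higher. The log2 ratio over IgG-IP was 0.61 (-0.32 to 1.63) for FC and 0.95 (0.20 to 1.78) for CON, and at the promoter it was 0.03 (-0.59 to 0.68) and 0.91 (0.21 to 1.67). At that promoter IgG-IP was 0.44 RPKM in FC and 0.255 in CON, whereas H4K5ac was 0.449 and 0.478 and input 0.478 and 0.593. The gene lies inside Cerkl, which runs on the same strand, and under the lincRNA Gm17325 on the other strand, so its reads cannot be assigned to 1 of these genes.

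Neurod6, a factor of cortical and hippocampal pyramidal neurons, showed no H4K5ac above the controls in its gene body. It held 26 H4K5ac reads in FC and 32 in CON (0.239 and 0.258 RPKM), 21 and 24 IgG-IP reads (0.419 and 0.423 RPKM), and 66 and 64 input reads (0.42 and 0.525 RPKM). H4K5ac was below both controls in both groups. The log2 ratio over IgG-IP was -0.81 (-1.70 to 0.09) for FC and -0.71 (-1.52 to 0.12) for CON, at percentiles 10.2 and 11.8, and over input it was -0.81 (-1.53 to -0.14) and -1.02 (-1.68 to -0.39). The gene body has 38.6% GC, and relative to the median of genes of equal GC content its FC and CON ratios over IgG-IP were -0.81 and -0.80. Its promoter held 0.361 RPKM of H4K5ac in FC and 0.506 in CON beside IgG-IP of 0.426 and 0.401 and input of 0.447 and 0.475, so that the H4K5ac libraries lay on either side of their mocks there. Within 1 kb of the TSS the CpG content was low, at an observed to expected ratio of 0.274 against 0.517 for Neurod1 and 0.467 for Neurod2, with a median of 0.468 over all protein-coding genes.

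**Figure D3:**
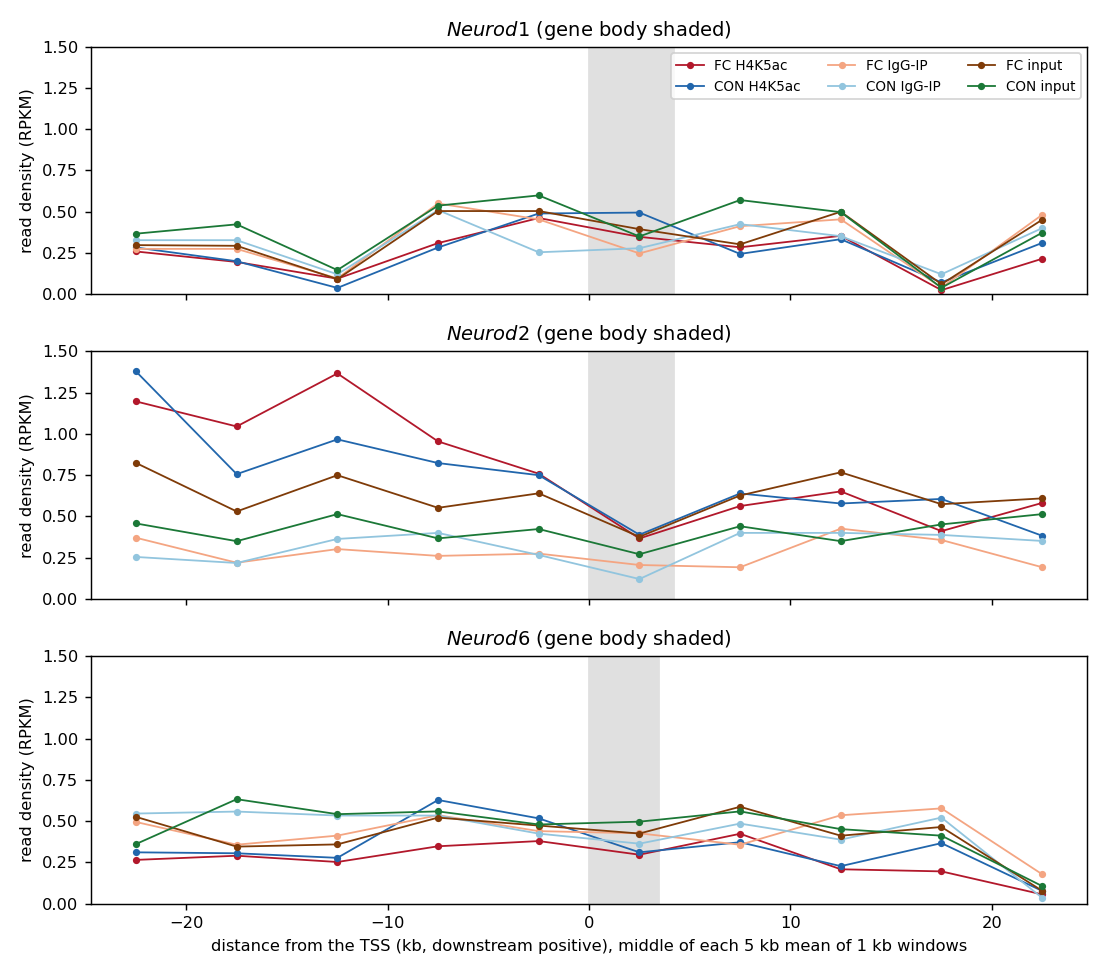
Read density in RPKM along Neurod1, Neurod2 and Neurod6 and their flanks, as means of 5 windows of 1 kb plotted against the distance from the TSS in kb, 1 line per library. The H4K5ac lines of Neurod2 stand above the other libraries upstream of the gene and fall at the gene body, whereas those of Neurod6 run at or under IgG-IP and input over most of the region.

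Of the patterning factors, Emx2 had a lower gene-body ratio over IgG-IP than the median gene, and Lhx2 a somewhat higher one that was close to the median of genes of equal GC content. Emx2 (chr19:59533180-59539847, plus strand) held 100 H4K5ac reads in FC and 103 in CON, or 0.475 and 0.43 RPKM, beside IgG-IP of 0.392 and 0.382 and input of 0.566 and 0.314. Its log2 ratio over IgG-IP was 0.28 (-0.28 to 0.85) for FC and 0.17 (-0.36 to 0.72) for CON, at percentiles 30.6 and 29.3, and H4K5ac and IgG-IP could not be told apart at this depth. Its promoter, which overlaps the antisense lincRNA Emx2os, held 0.582 and 0.445 RPKM of H4K5ac, 0.344 and 0.364 of IgG-IP and 0.627 and 0.492 of input, with ratios over IgG-IP of 0.76 (0.11 to 1.46) and 0.29 (-0.33 to 0.95). Genes of equal GC content had higher gene-body ratios than Emx2, which stood at -0.87 and -0.77 relative to their median. Lhx2 (chr2:38194801-38225253, plus strand) had 0.539 and 0.598 RPKM of H4K5ac, 0.271 and 0.341 of IgG-IP, and 0.596 and 0.425 of input. Its gene-body ratio over IgG-IP was 0.99 (0.70 to 1.29) for FC and 0.81 (0.57 to 1.06) for CON, at percentiles 66.1 and 63.2, and it stood at -0.09 and -0.03 relative to genes of equal GC content. Over input it was -0.14 (-0.31 to 0.02) and 0.49 (0.32 to 0.67), where the medians of all genes were 0.20 and 0.48. The Lhx2 promoter held 0.43 and 0.45 RPKM of H4K5ac, 0.358 and 0.267 of IgG-IP and 0.605 and 0.39 of input, and its ratio over IgG-IP was 0.27 (-0.40 to 0.98) for FC and 0.75 (0.06 to 1.51) for CON. Lhx2 has 3 groups of annotated starts, at 0, 1.81 and 12 kb from the first. Within 1 kb of the site at 1.81 kb, H4K5ac was 0.443 RPKM in FC and 0.918 in CON, IgG-IP 0.55 and 0.516 and input 0.504 and 0.438. At the first site H4K5ac was 0.301 and 0.487 RPKM and IgG-IP 0.138 and 0.121. At 12 kb H4K5ac was 0.285 and 0.25 RPKM, with 18 reads in each group, beside 1 and 6 IgG-IP reads. The higher CON value was thus not shared by the site at 12 kb.

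Tbr1, at chr2:61640987-61652171 on the plus strand, had little H4K5ac above the mock. Its gene body held 0.427 RPKM of H4K5ac in FC and 0.423 in CON, 0.344 and 0.304 of IgG-IP, and 0.447 and 0.402 of input. The log2 ratio over IgG-IP was 0.31 (-0.14 to 0.78) for FC and 0.48 (0.03 to 0.94) for CON. Its promoter has the lowest GC content of the 9, 37.7%, and overlaps Psmd14, a proteasome subunit gene. Promoter H4K5ac was 0.329 and 0.528 RPKM, IgG-IP 0.358 and 0.437, and input 0.355 and 0.424, so that the FC libraries hardly differed from each other. The promoter ratio over IgG-IP was -0.12 (-0.83 to 0.62) for FC and 0.27 (-0.29 to 0.87) for CON. Promoters of equal GC content had lower ratios, and the Tbr1 ratio stood 1.29 above their median in FC and 1.58 above it in CON.

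Prox1, the marker of dentate granule cells at chr1:191945660-191994559 on the minus strand, was at least 2-fold over IgG-IP in FC in both regions. Its gene body and promoter overlap the antisense lincRNA Gm17566, whose reads cannot be told apart. Its gene body held 1270 H4K5ac reads in FC and 1134 in CON (0.822 and 0.645 RPKM), IgG-IP at 0.364 and 0.457, and input at 0.56 and 0.484. H4K5ac was the highest library of each group, and IgG-IP was lower in FC than in CON. The log2 ratio over IgG-IP was 1.17 (0.98 to 1.37) for FC and 0.50 (0.33 to 0.67) for CON. Relative to genes of equal GC content the gene body stood at 0.45 in FC and -0.15 in CON. Over input the ratios were closer, at 0.55 (0.44 to 0.67) and 0.41 (0.28 to 0.55). The promoter gave 1.67 (0.91 to 2.53) for FC and 0.93 (0.29 to 1.62) for CON over IgG-IP, with 0.702 and 0.578 RPKM of H4K5ac, 0.22 and 0.303 of IgG-IP and 0.43 and 0.396 of input. Relative to promoters of equal GC content it stood at 0.27 in FC and -0.19 in CON. H4K5ac fell beyond the end of the gene. The body exceeded the 25 kb downstream by 1.19 in FC and 1.13 in CON on the log2 scale, with standard errors of 0.09 and 0.10, at percentiles 94.2 and 93.7, whereas IgG-IP gave -0.43 and 0.06 and input 0.11 and -0.03. Toward the upstream flank H4K5ac barely changed, with 0.24 and 0.12.

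Bcl11b, a marker of CA1 and dentate neurons at chr12:109148613-109241812 on the minus strand, had few H4K5ac reads at its start. The gene body held 2422 H4K5ac reads in FC and 2414 in CON (0.822 and 0.72 RPKM), beside IgG-IP of 0.364 and 0.394 and input of 0.645 and 0.414. The log2 ratio over IgG-IP was 1.18 (1.04 to 1.32) for FC and 0.87 (0.74 to 1.00) for CON, and relative to genes of equal GC content 0.09 and 0.03. The promoter held 0.645 and 0.567 RPKM of H4K5ac, 0.33 and 0.364 of IgG-IP and 0.478 and 0.283 of input, with ratios over IgG-IP of 0.97 (0.31 to 1.67) and 0.64 (0.04 to 1.28). Relative to promoters of equal GC content these ratios stood at -0.59 in FC and -0.52 in CON. Within 1 kb of the TSS H4K5ac was 0.206 RPKM in FC and 0.181 in CON, with 13 reads in each, while IgG-IP was 0.241 and 0.152 and input 0.395 and 0.297. This start region is rich in CpG, with an observed to expected ratio of 0.857 at percentile 95.9. When the gene was cut into 10 parts of equal length, parts 8 and 9 held the most H4K5ac, 1.16 and 1.04 RPKM in FC and 0.988 and 1.02 in CON, and part 10 held 0.601 and 0.57. IgG-IP in parts 8 and 9 was 0.317 and 0.31 in FC and 0.482 and 0.462 in CON, and input was 0.68 and 0.673 in FC and 0.54 and 0.449 in CON. The 3′ part of the gene exceeded the 5′ part of equal length by 0.19 in FC and 0.38 in CON in H4K5ac on the log2 scale, with a standard error of 0.06. IgG-IP gave -0.13 and 0.15 with standard errors of 0.13 and 0.12, and input 0.02 and 0.11 with 0.06 and 0.08. For H4K5ac the median gene of at least 30 kb gave 0.02 and 0.01.

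Zbtb20, which specifies hippocampal CA1 identity and spans chr16:42875994-43642715 on the plus strand, is the longest of the 9 genes at 767 kb. Its gene body also holds a shorter protein-coding record of the same symbol, 3 pseudogenes, a U6 snRNA, 2 antisense transcripts and Mir568, and its promoter overlaps the antisense lincRNA 4932412D23Rik, whose reads cannot be told apart from its own. It held 19889 H4K5ac reads in FC and 22740 in CON (0.821 and 0.825 RPKM), 4637 and 5322 IgG-IP reads (0.416 and 0.421 RPKM), and 11916 and 11387 input reads (0.341 and 0.42 RPKM). The H4K5ac densities of FC and CON were close, as were those of IgG-IP, while input was lower in FC. The log2 ratio over IgG-IP was 0.98 (0.93 to 1.03) for FC and 0.97 (0.93 to 1.01) for CON. Against genes of equal GC content, 38.6%, it stood 0.98 and 0.88 above the median. Neurod6 has the same GC content in its gene body and a ratio on the other side of 0. Among the 4 members of at least 30 kb, Zbtb20 alone lies in the class of genes over 100 kb, whose median was 0.53 in FC and 0.52 in CON.

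Along Zbtb20, 30 windows of 25 kb fit inside the gene, and 7 windows outside it were counted for comparison, of which the 3 downstream began at 775 kb. H4K5ac inside ranged from 0.359 to 1.38 RPKM in FC (median 0.758) and from 0.393 to 1.35 in CON (median 0.757). None of these 7 windows exceeded 0.432 RPKM in FC or 0.388 in CON, although the 25 kb that directly follow the gene held 0.529 and 0.457, above the lowest inner windows. Thus 29 of 30 inner windows in FC and 30 of 30 in CON were above the 7 outer windows, whereas this held for 0 and 3 windows of IgG-IP and for 1 and 0 of input. The windows from 575 to 725 kb, a stretch chosen after its values were seen, held the most H4K5ac, with medians of 1.26 RPKM in FC and 1.25 in CON, while IgG-IP had medians of 0.453 and 0.426 and input 0.479 and 0.466 there. The 3′ part of the gene exceeded the 5′ part of equal length by 0.55 in FC and 0.50 in CON for H4K5ac on the log2 scale, with a standard error of 0.02. Input moved the same way, by 0.62 in FC and 0.20 in CON, and IgG-IP by 0.22 and 0.12, and their part in the H4K5ac slope was not tested.

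**Figure D4:**
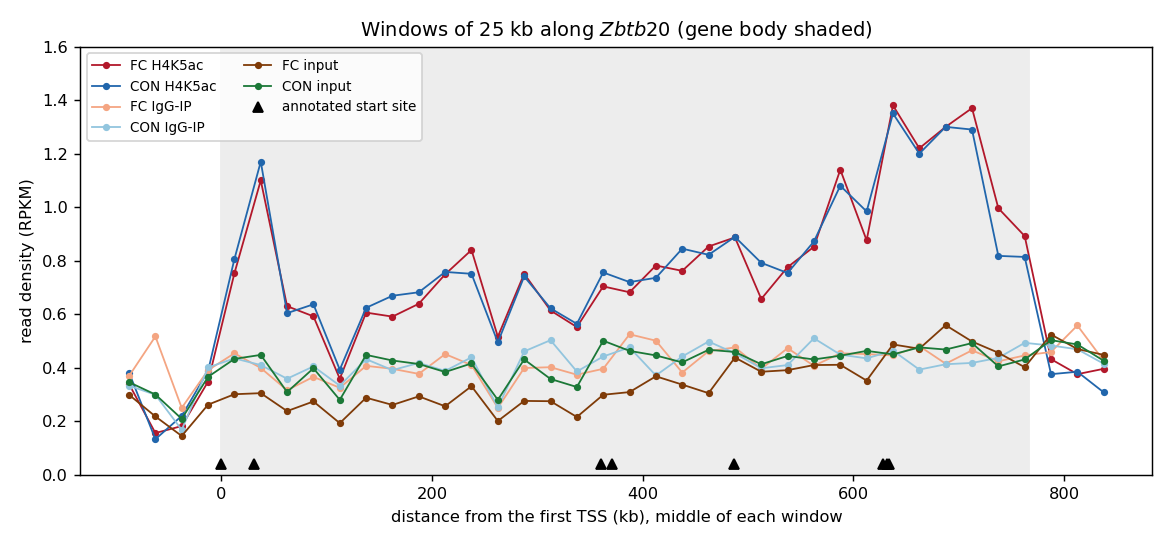
Read density in RPKM in windows of 25 kb along Zbtb20 and its flanks, plotted against the distance from the first TSS in kb, 1 line per library, with triangles at the annotated start sites. Both H4K5ac lines step up at the start of the gene, peak in the window at 25 to 50 kb and again between 575 and 725 kb, and step down beyond its end, while the IgG-IP and input lines stay between 0.193 and 0.559 RPKM inside the gene.

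Zbtb20 has 8 groups of annotated start sites, and H4K5ac within 1 kb of them differed between sites. At the first, which belongs to a transcript that is not coding, it was 0.696 RPKM in FC and 0.626 in CON. At the second, 31.5 kb inside, it was 1.58 and 1.45 RPKM, and the log2 ratio over IgG-IP was 2.35 (1.37 to 3.52) and 1.25 (0.55 to 2.02). The sites at 360, 487 and 628 kb reached 1.8, 1.55 and 1.77 RPKM in FC and 1.18, 1.49 and 1.64 in CON. IgG-IP at those 3 sites was between 0.275 and 0.516 RPKM. Input there was 0.482, 0.559 and 0.866 RPKM in FC and 0.565, 0.339 and 0.452 in CON, so that at 628 kb the FC input was far above its gene-body mean of 0.341. The sites at 632 and 634 kb held 1.22 and 1.25 RPKM of H4K5ac in FC and 1.27 and 0.932 in CON. At the site at 371 kb, close to the high site at 360 kb, H4K5ac was 0.601 RPKM (0.425 to 0.825) in FC and 0.695 (0.516 to 0.917) in CON. These values were under the gene-body means of 0.821 and 0.825, but both intervals held those means. The promoter upstream of the first TSS was thus not where the gene carried most of its H4K5ac, and it gave a ratio over IgG-IP of only 0.49 (-0.06 to 1.07) for FC and 0.38 (-0.09 to 0.88) for CON. H4K5ac at that promoter was 0.715 and 0.79 RPKM and input 0.342 and 0.379. IgG-IP was high there, 0.509 and 0.607 RPKM, at percentiles 90.6 and 97.9 of protein-coding genes.

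Of the 1 kb windows inside each gene, the one with the most H4K5ac lay outside annotated exons in Lhx2, Prox1, Bcl11b and Zbtb20. These genes held 30 to 766 windows each, and the other members 3 to 11. The share of all windows outside exons was not counted. The top windows were picked for the highest sum of FC and CON H4K5ac density, so their values are a description. In Prox1 the top window began 30 kb from the TSS with 1.49 RPKM of H4K5ac in FC and 1.03 in CON, beside IgG-IP of 0.344 and 0.85 and input of 0.548 and 0.565. In Bcl11b it began at 78 kb with 1.3 and 1.59 RPKM, beside 0.344 and 0.243 of IgG-IP and 0.789 and 0.339 of input. In Lhx2 it began at 28 kb with 1.17 and 1.31 RPKM, beside 0.413 and 0.607 of IgG-IP and 1.12 and 0.48 of input, so that H4K5ac and input were close there in FC. Zbtb20 held 766 such windows against 3 to 93 in the other genes, so its highest value was drawn from many more windows. The highest 1 kb window of each control library lay in Zbtb20 as well. Those windows held 1.31 and 1.21 RPKM of IgG-IP and 1.18 and 1.07 of input in FC and CON. By the sum of H4K5ac densities the highest window of the 9 genes was in Zbtb20, 254 kb from the first TSS at chr16:43129994-43130993, with 85 H4K5ac reads in FC and 70 in CON beside 7 and 4 IgG-IP and 31 and 18 input reads. It lies in an intron between the start sites at 31.5 and 360 kb. The middle 300 bases of this window, chr16:43130344-43130643 on the plus strand, are shown because this window had the densest H4K5ac of the 9 genes. They hold 3 CpG and 50.7% GC.
Zbtb20 intron: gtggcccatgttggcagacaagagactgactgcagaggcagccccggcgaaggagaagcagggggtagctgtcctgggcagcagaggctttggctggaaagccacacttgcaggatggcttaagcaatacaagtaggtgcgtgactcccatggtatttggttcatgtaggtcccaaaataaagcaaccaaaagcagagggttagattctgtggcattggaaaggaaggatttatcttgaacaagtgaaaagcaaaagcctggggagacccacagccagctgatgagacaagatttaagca

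Between the groups, the gene-body H4K5ac of the 9 members differed little. None was at least 1.5-fold higher in FC, where 3.41% of 19336 protein-coding genes were, and 1 of 9, Neurod1, was at least 1.5-fold lower, where 1.19% of genes were. At promoters 0 of 9 were higher in FC beside 4.87% of all genes, and 1 of 9, Tbr1, was lower beside 2.75%. The median log2 ratio of FC to CON was 0.02 in gene bodies and -0.07 at promoters, and that of all genes 0.04 and 0.06. In 6 of 9 gene bodies and 8 of 9 promoters the counting interval of the ratio held 0. How many of all genes did so was not counted, and the interval is narrower where a region holds more reads.

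The Neurod1 gene body gave a log2 ratio of FC to CON of -0.64 (-1.21 to -0.08) for H4K5ac, -0.29 (-1.44 to 0.82) for IgG-IP and 0.23 (-0.29 to 0.76) for input, at 44.1% GC. With 1 read per position and strand the H4K5ac ratio was -0.56, with mapping scores of at least 20 it was -0.52 and without the first 1 kb of the gene -0.56, each under 1.5-fold. The Tbr1 promoter gave -0.68 (-1.20 to -0.18) for H4K5ac, -0.29 (-1.08 to 0.48) for IgG-IP and -0.26 (-0.73 to 0.22) for input, and less either control ratio it was under 1.5-fold. Within 1 kb to each side of the first Tbr1 start the ratio was 0.08 (-0.60 to 0.75). That start, which also sets the promoter, belongs to a transcript that is not coding. Coding transcripts start 1.52 and 3.33 kb inside. Within 1 kb of those sites H4K5ac was 0.506 and 0.364 RPKM in FC and 0.403 and 0.473 in CON. The difference at Neurod1 thus rested on 43 against 76 H4K5ac reads, and that at Tbr1 on 52 against 95 in a region that overlaps Psmd14, and both intervals also held differences under 1.5-fold.

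Of the 9 members, Prox1 and Bcl11b had the only gene bodies whose interval lay above 0 for the FC to CON ratio, a count not made over all genes. For Prox1 the ratio was 0.35 (0.23 to 0.47) for H4K5ac, -0.33 (-0.56 to -0.09) for IgG-IP and 0.21 (0.08 to 0.34) for input, at a gene-body GC content of 45.6%. Within 1 kb to each side of the Prox1 TSS H4K5ac was on the contrary lower in FC, with 31 against 55 reads (0.49 and 0.765 RPKM) and a ratio of -0.64 (-1.33 to 0.02). For Bcl11b it was 0.19 (0.11 to 0.27) for H4K5ac, -0.12 (-0.29 to 0.06) for IgG-IP and 0.64 (0.54 to 0.73) for input at 50.5% GC. Against genes of equal GC content, the H4K5ac ratio of Prox1 was 0.32 above the median and that of Bcl11b 0.08. Zbtb20 gave -0.01 (-0.03 to 0.02) for H4K5ac, -0.02 (-0.08 to 0.04) for IgG-IP and -0.30 (-0.34 to -0.26) for input. The GC content of Zbtb20 is 38.6%. Input differed between groups by more than H4K5ac in every gene body but those of Neurod1 and Prox1. The same held for the medians of all protein-coding gene bodies tested, 0.31 for input and 0.04 for H4K5ac. It is therefore not particular to the members, and the share of all genes was not counted.

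**Figure D5:**
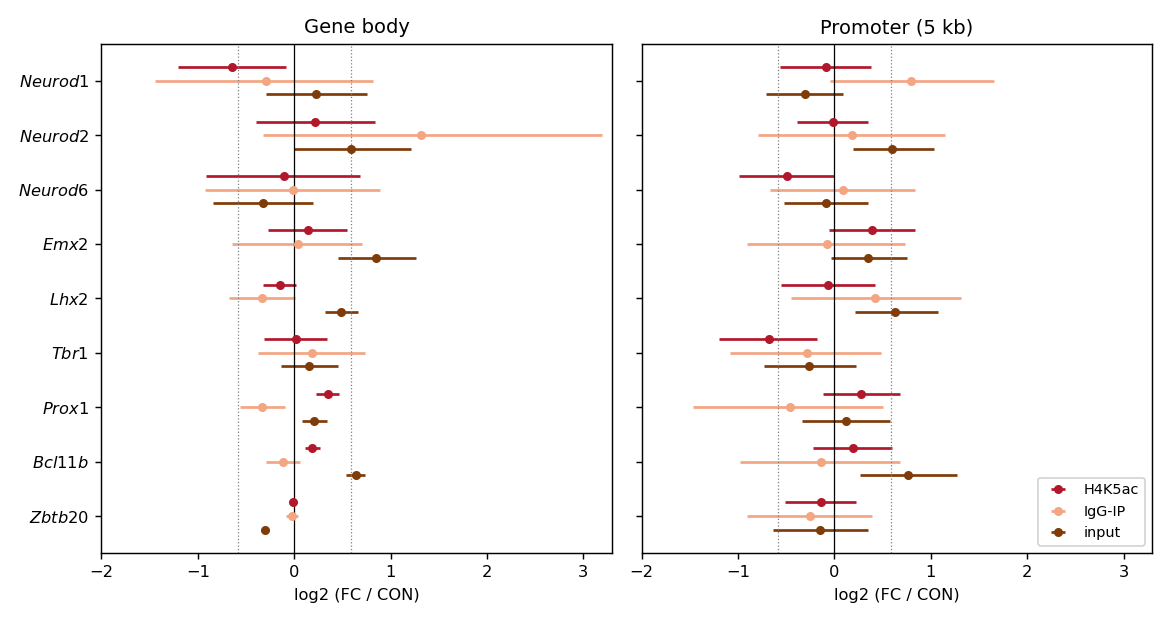
Log2 ratio of FC to CON read density for each gene, for H4K5ac, IgG-IP and input separately, with exact 95% intervals of the counts. Dotted lines mark 1.5-fold. The H4K5ac points of Neurod1 (gene body) and Tbr1 (promoter) lie left of the 1.5-fold line, and in the gene body input lies farther from 0 than H4K5ac at every gene but Neurod1 and Prox1. The medians of all gene bodies tested, not drawn, were 0.31 for input and 0.04 for H4K5ac.

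Genes related to the members by function are given by counts and medians, to be read beside the 33.4% in FC and 25.0% in CON of all gene bodies that were at least 2-fold over IgG-IP. Of 34 other transcription factors of the forebrain and hippocampus, 5 gene bodies were at least 2-fold over IgG-IP in FC and 8 in CON, with medians of 0.60 and 0.54 on the log2 scale. They ranged in FC from Neurod4, a paralog of early neurons, at -1.56 (-2.03 to -1.09) to Mef2d, an activity-regulated MADS-box factor, at 2.08 (1.81 to 2.36). Of 21 tested factors of other brain regions and of interneurons, 1 was enriched in FC, and of 22 tested in CON 0 were. Their medians were -0.25 and -0.60, from Pou4f1, a factor of sensory neurons, at -1.70 (-2.79 to -0.66) to Dlx2, a factor of interneuron precursors, at 2.20 (0.52 to 4.56). Of the factors of other tissues, 4 of 19 were enriched in FC and 2 of 20 in CON, with medians of -0.01 and -0.24, from Pdx1 of pancreas at -1.15 (-1.76 to -0.54) to Myog of muscle at 1.88 (1.13 to 2.73). The medians of the 9 members, 0.98 and 0.81, lay above those of these 3 lists in both groups. This holds for the ratio over IgG-IP, while relative to genes of equal GC content the medians of the members were -0.09 and -0.03 and over input -0.09 and 0.45, values that were not computed for the lists. Genes that encode partners and inhibitors of the members, such as E proteins, Id proteins and LIM cofactors, lay higher, with 13 of 19 enriched in FC, 10 of 19 in CON and medians of 1.12 and 1.02. Their range in FC ran from the corepressor Tle4 at 0.32 (0.22 to 0.42) to the inhibitor Id4 at 2.52 (1.08 to 4.45), which in CON gave 0.17 (-0.80 to 1.23). None of 3 genes under known control of a member was enriched, and they ran from Afp, which Zbtb20 represses in liver, at -0.44 (-0.79 to -0.08) to Grin2b, which Tbr1 regulates, at 0.78 (0.72 to 0.84).

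Markers of the cells in hippocampus were checked in the same way, by the gene-body ratio over IgG-IP. Of 5 excitatory neuron markers 3 were at least 2-fold in FC and 1 in CON, with medians of 1.2 and 0.92, the kinase gene Camk2a at 1.31 (1.14 to 1.49) in FC and Slc17a6, the vesicular glutamate transporter of subcortical neurons, at -1.11 (-1.33 to -0.88). Of 8 oligodendrocyte markers 5 were 2-fold in each group, with medians of 1.33 and 1.03 and a range in FC from Olig2 at 0.37 (-0.48 to 1.29) to Olig1 at 2.34 (0.67 to 4.69). Of 5 astrocyte markers 0 and 1 were, with medians of 0.83 and 0.74, from the water channel gene Aqp4 at -0.10 to Gfap at 0.96. Of 5 tested interneuron markers 0 were in either group, with medians of 0.80 and 0.31, from Vip at -1.51 to Slc32a1 at 0.82. Of 6 microglia markers 1 was in each group, with medians of 0.73 and 0.48 from Itgam at -0.00 to Aif1 at 1.61, and of 3 endothelial markers 1 was in each, with medians of 0.97 and 0.92, from Flt1 at 0.10 to Pecam1 at 1.19. Of 4 tested markers of tissues outside the brain 0 were, with medians of -0.31 and 0.22, from Alb at -1.04 to Myh6 at 0.98. Against the medians of all genes, 0.70 and 0.61, the interneuron and microglia medians were higher in FC and lower in CON, and the other brain cell lists were higher in both groups. At promoters the interneuron medians were 0.06 and -0.37, the microglia medians 0.30 and 0.57 and the endothelial medians -0.09 and -0.13. All were under the medians of all genes in the same group, 0.68 and 0.58, as were the markers of tissues outside the brain, at -0.97 and -0.60. The excitatory promoter medians, 0.79 and 1.27, and those of astrocytes and oligodendrocytes lay above all genes in both groups. At least 2-fold were the promoters of 3 of 5 astrocyte markers in each group. For oligodendrocyte markers it was 8 of 8 in FC and 5 of 8 in CON.

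The protein-coding gene whose pattern was most like each member was found by the Euclidean distance over 12 log2 densities, the gene body and promoter in 6 libraries, among 19022 genes. The closest pairs were Bcl11b with Mark1 at a distance of 0.372, Prox1 with Stx12 at 0.396 and Lhx2 with Tmem53 at 0.4. Tbr1 was closest to Scrg1 at 0.536, Zbtb20 to Grm3 at 0.545, Emx2 to Slc29a4 at 0.549 and Neurod6 to Lgsn at 0.566. Neurod1 with Rps2 at 0.922 and Neurod2 with Mrfap1 at 1.19 were the farthest from their nearest gene. The median distance to all genes ran from 1.57 for Bcl11b to 3.4 for Neurod2.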

How the data were processed

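Whole hippocampus of FC and CON mice was measured by ChIP-seq for H4K5ac, with IgG-IP and input libraries of each group, 1 library each. The authors sequenced on SOLiD, aligned to mm9 with Bioscope, allowing several mapping positions per read, and deposited the aligned reads. Each deposited line is 1 read, not normalized, and its score, from 4 to 100, is the mapping quality from the authors' alignment. Reads overlapping a gene body or promoter of the GENCODE mm9 annotation by at least 1 bp were counted without use of strand, so overlapping genes cannot be told apart. The longest record was used per symbol. Densities (RPKM) have exact Poisson intervals and ratios exact binomial (Clopper-Pearson) 95% intervals, which cover counting error only. No significance test was made. Point ratios past 2-fold (over IgG-IP) or 1.5-fold (between groups) were counted, and a gene is called tested where both libraries together held at least 20 reads. Aligned depth was 14549689 to 45673239 reads, of which 11.5 to 17.8% repeated a position and strand.

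The 9 members are all described. For each list of genes, the lowest and the highest gene in FC are named. Id4 in CON and the window from 575 to 725 kb of Zbtb20 were chosen after their values were seen. The same holds for parts 8 and 9 of Bcl11b. The members, the lists and the windows along the genes were chosen with earlier results of these data known. Likeness was the Euclidean distance of log2 densities with 0.5 reads added. Alternatives were 1 read per position and strand, scores of at least 20, read midpoints, promoters of 2 kb or 1 kb to each side of the TSS, gene bodies without the first 1 kb, input as control, centring on all genes or on genes of like GC content, and subtraction of the control ratio. Interval and call functions were checked on simulated data. Python 3.11.15, NumPy 2.4.6, SciPy 1.17.1, pandas 2.3.3 and matplotlib 3.10.9 were used. Sequences were read from the mm9 reference genome.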

Additional observations from a re-analysis of the deposited data

Results flagged for a closer look

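For 10 of the ratios in gene bodies and promoters of 5 kb the FC value lay below 0 and the CON value above it, on the log2 scale and with 1 library per group, so that these differences between groups were not tested. Of these, 8 were ratios of H4K5ac to input. In gene bodies they were -0.37 (-0.94 to 0.19) against 0.50 (-0.03 to 1.03) at Neurod1, -0.09 against 0.29 at Neurod2, -0.25 (-0.62 to 0.11) against 0.45 (0.01 to 0.90) at Emx2, -0.14 (-0.31 to 0.02) against 0.49 (0.32 to 0.67) at Lhx2, and -0.07 against 0.07 at Tbr1. At promoters they were -0.31 against 0.09 at Neurod6, -0.49 (-0.93 to -0.06) against 0.21 (-0.27 to 0.69) at Lhx2, and -0.11 against 0.32 at Tbr1. Relative to the median of genes of like GC content, the FC and CON values over input were both below 0 in the gene bodies of Neurod2 (-0.51 and -0.41), Emx2 (-0.46 and -0.29), Lhx2 (-0.32 and -0.16) and Tbr1 (-0.21 and -0.49) and at the promoters of Neurod6 (-0.57 and -0.10) and Lhx2 (-0.74 and -0.46). Both were above 0 at the Tbr1 promoter (0.62 and 1.67), and the signs stayed opposite in the Neurod1 gene body (-0.54 and 0.10). The median of all protein-coding genes over input was likewise lower in FC than in CON, with 0.20 and 0.48 in gene bodies. Over IgG-IP the remaining 2 were the promoters of Neurod6, with -0.24 against 0.34, and of Tbr1, with -0.12 against 0.27. Relative to genes of like GC content these were -0.51 and 0.07 at Neurod6 and 1.29 and 1.58 at Tbr1. Before that centring, the Lhx2 gene body was the one pair of these 10 whose intervals did not overlap each other. How many of all genes changed sign between groups, or had intervals apart, was not counted. These counts are therefore not a result about the members.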

How the results depend on the processing

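Shares in parentheses are those of all genes under the same setting. The count of gene bodies at least 2-fold over IgG-IP in FC, 2 as reported, was 3 with scores of at least 20 (33.2%), where Neurod2 went from 0.98 to 1.47, 0 when ratios were centred on all genes tested (7.37%) or on genes of like GC content (3.06%), and 1 (Zbtb20) with input as the control (4.03%). In CON the 1 such gene body became 0 with the GC centring (2.63%) and 0 with input (14.3%). At promoters the 2 in FC became 3 with scores of at least 20 (36%), 0 when centred on all genes (10.1%), 1 (Tbr1) with the GC centring (8.67%), 1 (Zbtb20) with input (8.91%) and 4 within 1 kb of the TSS (61.1%). The 1 in CON became 2 with 1 read per position and strand (25.9%), 2 with input (19.1%), 3 with promoters of 2 kb (44.7%) and 4 of the 8 testable within 1 kb of the TSS (51.3%), and was Tbr1 in place of Neurod2 with the GC centring (7.51%). The 1 gene body that differed 1.5-fold between groups, Neurod1 (4.61%), was lost (0) with 1 read per position and strand (3.4%), with scores of at least 20 (4.73%) and without the first 1 kb (4.2%). Less the input ratio there were 3 (Neurod1, Emx2 and Lhx2; 20.6%), and less the IgG-IP ratio the 1 was Prox1 among 8 genes (11.9%), since Neurod2, at -1.10, had too few IgG-IP reads, 16, to be counted. For promoters the count of 1 (7.61%) became 2 less the input ratio (Neurod2 and Lhx2, 28.9%) and 2 less the IgG-IP ratio (Neurod1 and Prox1, 29.5%), both without Tbr1, which fell under 1.5-fold at -0.43 and -0.39. It became 2 with 2 kb (Emx2 and Tbr1, 15.4%) and 3 within 1 kb of the TSS (Emx2 higher in FC at 0.66, Lhx2 and Prox1 lower at -0.70 and -0.64; 19.2%), where Tbr1 changed sign to 0.08. Why these counts moved was not tested. Read midpoints and scores of at least 20 kept all 54 member ratios inside the counting interval of the reported value, and 1 read per position and strand kept 53 of 54. Other settings moved many more. The GC centring moved 28 of 54, and centring on all genes tested moved 21 of 54. With input as the control 15 of 36 moved. Within 1 kb of the TSS 12 of 27 moved and 1 more was counted as reversed. Less the input ratio 8 of 18 moved, less the IgG-IP ratio 6 of 18, and with promoters of 2 kb 7 of 27. No paired analysis was possible because each group had 1 library per antibody, and for the same reason none could be left out. Depth limited the short genes most, since Neurod2 held 11 and 5 IgG-IP reads in its gene body.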
